A study of Mus musculus with 34 samples.

Results

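The genes described here are 10 components of tumour necrosis factor (TNF) receptor signalling: the receptors Tnfrsf1a and Tnfrsf1b, the adaptors Traf1, Traf2 and Traf3, the ubiquitin ligases Birc2 and Birc3, the kinases Ripk1 and Ripk2, and Cflar. They were taken by name from 2 deposited tables of 55487 gene IDs each, and all 10 were found in both. In the first table, liver RNA of 3-month-old males was sequenced from 6 wildtype (WT) mice 2 hours after intraperitoneal TNFa, 5 PiZ-p50-KO mice given PBS (PiZ p50KO below), 5 PiZ mice given PBS, and 6 WT mice given PBS. The second table covered WT males of the same age, 6 of them 24 hours after tunicamycin and 6 given DMSO, the vehicle. Tunicamycin stops the first step of protein N-glycosylation and so loads the endoplasmic reticulum with misfolded protein. Since the tables belong to different labelled batches, levels are compared only within each. PiZ mice express human alpha-1 antitrypsin in its Z form from a transgene; this protein polymerizes in the endoplasmic reticulum of hepatocytes. The PiZ p50KO mice carry the PiZ label as well and are labelled as lacking p50, the NF-kB subunit made from the Nfkb1 gene. The labels do not say whether mice of a group shared a litter or a cage, so p-values measure only the spread between these libraries.

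When TNF binds its main receptor, encoded by Tnfrsf1a, the adaptor TRADD, the kinase RIPK1 and the adaptor TRAF2 assemble on it, and TRAF2 brings in the ubiquitin ligases cIAP1 and cIAP2, encoded by Birc2 and Birc3. The ubiquitin chains they build on RIPK1 recruit the kinases that activate NF-kB, and several genes of the pathway are themselves NF-kB targets. If the chains are lost, RIPK1 can join a death complex with caspase-8, which c-FLIP, encoded by Cflar, holds in check. Hepatocytes are known to tolerate TNF as long as this NF-kB arm works. TRAF3 joins TRAF2 and the cIAPs in degrading the kinase NIK (Map3k14) of the alternative NF-kB pathway, TRAF1 binds TRAF2, and RIPK2 serves a separate route, from the bacterial sensors NOD1 and NOD2 to NF-kB.

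The 10 genes lie on 7 chromosomes of the mouse build GRCm38, and Birc2 and Birc3 are neighbours on chromosome 9, on the same strand with 11635 bases and 0 annotated genes between them. Promoter windows from RefSeq (GRCm38.p6; 250 bases before the annotated start and 50 after it) were held for 9 members, in 11 windows. They were searched on both strands for the NF-kB consensus sequence. It matched in 1 of the 11 windows, that of Traf3, as GGGGATTTCC with its first base 10 bases before the start; 4.51% of all 32841 promoter windows of the same length hold such a match. The window of Traf3 is shown because it holds the match, those of Birc2 and Birc3 because these neighbours went apart after tunicamycin, and that of Traf1 because its level differed most between PiZ and WT livers. Capitals mark the consensus match, and all 4 are written in the direction of the gene.
Traf3, chr12:111166120-111166419, + strand: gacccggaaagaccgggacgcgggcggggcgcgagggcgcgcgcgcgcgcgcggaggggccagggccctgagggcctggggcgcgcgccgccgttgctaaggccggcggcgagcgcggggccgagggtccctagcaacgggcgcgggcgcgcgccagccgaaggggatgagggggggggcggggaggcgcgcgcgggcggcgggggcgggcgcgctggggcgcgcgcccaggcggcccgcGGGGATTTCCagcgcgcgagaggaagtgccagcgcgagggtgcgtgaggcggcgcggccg
Traf1, chr2:34961723-34962022, - strand: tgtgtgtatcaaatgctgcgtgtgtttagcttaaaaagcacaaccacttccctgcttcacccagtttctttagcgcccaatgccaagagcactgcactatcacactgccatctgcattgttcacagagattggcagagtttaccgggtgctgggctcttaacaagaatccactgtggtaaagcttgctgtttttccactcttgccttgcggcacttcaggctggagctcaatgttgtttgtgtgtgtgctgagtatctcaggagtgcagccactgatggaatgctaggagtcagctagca
Birc2, chr9:7837008-7837307, - strand: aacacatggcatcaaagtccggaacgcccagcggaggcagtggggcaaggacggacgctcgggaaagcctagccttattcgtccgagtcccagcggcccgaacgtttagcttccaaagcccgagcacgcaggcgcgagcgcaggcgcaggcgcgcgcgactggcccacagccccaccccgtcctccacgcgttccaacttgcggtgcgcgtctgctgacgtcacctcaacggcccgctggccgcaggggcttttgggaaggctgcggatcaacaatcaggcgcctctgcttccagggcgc
Birc3, chr9:7873121-7873420, - strand: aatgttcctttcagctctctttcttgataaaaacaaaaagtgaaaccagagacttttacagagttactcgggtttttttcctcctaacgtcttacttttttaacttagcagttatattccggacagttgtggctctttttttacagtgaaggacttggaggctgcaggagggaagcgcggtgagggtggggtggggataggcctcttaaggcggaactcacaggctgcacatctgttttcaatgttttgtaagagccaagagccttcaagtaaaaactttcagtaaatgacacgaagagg
The absence of a match in the other windows says only that these letters are not in those 300 bases.

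Values are log2 CPM, the log2 of a gene's reads per mega-read (10 to the power 6 reads) of its library. Genes without reads are listed at finite values (the lowest is -6.52 in the first table), so a small prior count is contained in them. Depth recovered from the values was 35.5 to 54.0 M reads (M for mega) in 21 of the 22 libraries of the first table and 34.3 to 47.8 M in the second. The hepatocyte transcript Alb (albumin) stood at 15.4 to 16.5 log2 CPM in those 21 libraries and at 14.1 to 16.4 in the second table. The library WT PBS 2 stood apart, with 10.2 M reads, 72.2% of them in protein-coding genes against 97.3% to 97.8% in the others, and Alb at 12.2 log2 CPM. It is set apart here: in it Traf1 was at 6.45 log2 CPM (894 reads), Traf3 at 6.25, Birc2 at 5.30, Ripk1 at 5.01, Traf2 at 4.06 and Ripk2 at 3.36, each above the other 5 WT PBS libraries, and Tnfrsf1a at 4.61, Birc3 at 2.27, Tnfrsf1b at 4.45 and Cflar at 5.48. Every comparison below leaves it out of the fit, and the calls of members and of named pathway genes that end when it is put back are given. Fold changes and standard errors (SE) come from limma. It was fitted to the genes above 1 CPM in 5 or more first-table libraries (13285 genes, all 10 members) or 6 or more second-table libraries (13388 genes, 9 members), and a gene is called where its Benjamini-Hochberg adjusted p is under 0.05. In RNA from whole liver, fewer cells of a type and less RNA per cell cannot be told apart.

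**Figure D1:**
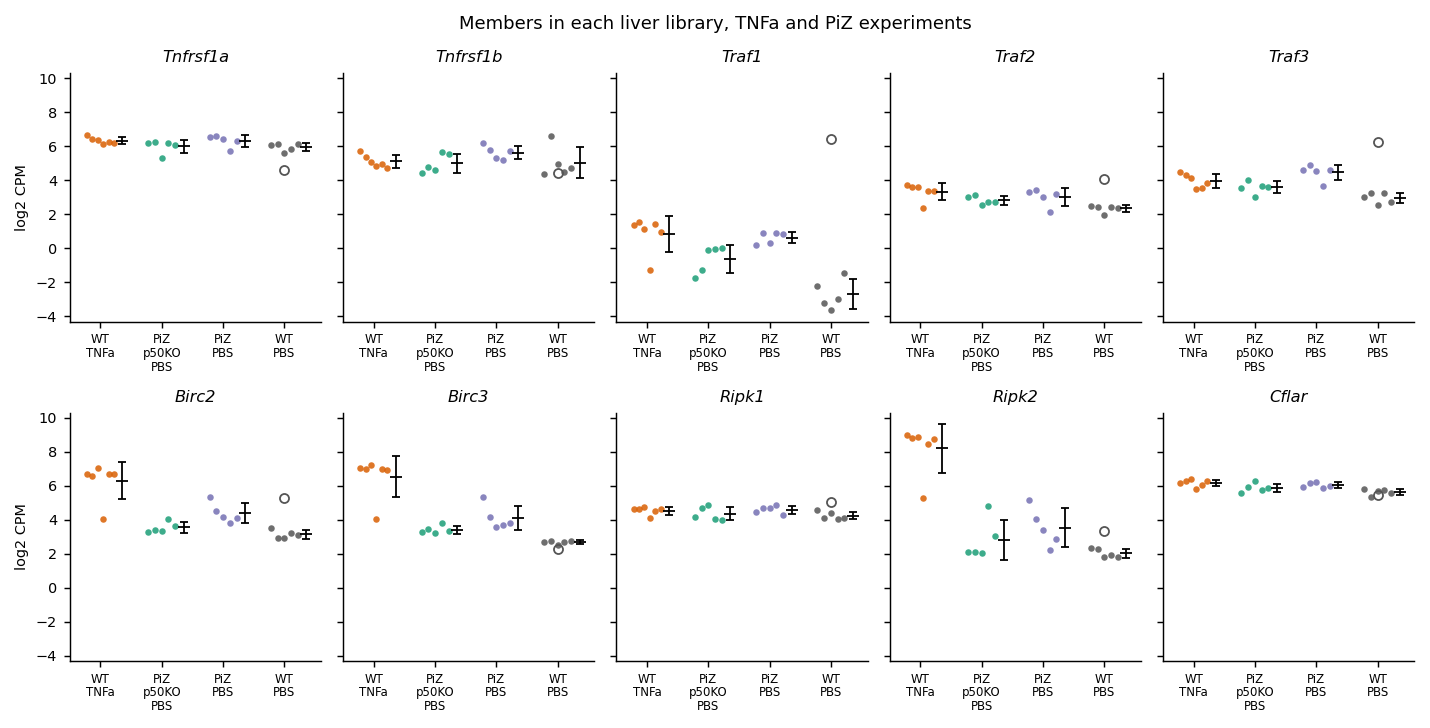
Level of each member in log2 CPM (y axis) in every library of the first table, by group (x axis: WT TNFa, PiZ p50KO PBS, PiZ PBS, WT PBS). Points are libraries, the open circle is WT PBS 2, and bars are the mean ± SD without it. Ripk2, Birc3 and Birc2 reach their highest levels in 5 of the 6 TNFa libraries, with WT TNFa 4 below them.

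After TNFa the adaptors, ligases and RIPK2 moved, and the receptors did not pass the test. Of the 10 members, 7 rose and 0 fell against PBS, where 7.63% of all genes tested were called higher and 4.05% lower. The median change of the members was 1.00 on the log2 scale, against -0.02 for all genes tested. With libraries shifted to the same median, the calls over all genes split into 986 higher and 821 lower, and 7 members were again higher. The rise was greatest for Ripk2, the kinase of the NOD pathway, then for the ligases Birc3 and Birc2 and the adaptor Traf1, and smaller for Traf3, Traf2 and Cflar.

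Ripk2 ranged over 5.27, 8.80 and 8.96 log2 CPM (lowest, median and highest of 6 TNFa libraries), against 2.35, 2.29, 1.83, 1.91 and 1.79 in WT PBS 1, 3, 4, 5 and 6. The groups did not overlap, and the lowest TNFa value, that of WT TNFa 4, lay more than 3 log2 units below the other 5 (8.47 to 8.96). Nfkb1, which is not a member, was also lowest in WT TNFa 4, at 4.77 log2 CPM against 6.57 to 6.95 in the other 5. In the WT PBS libraries used here Nfkb1 stood at 3.92 to 4.34. The log2 fold change was 6.16 (SE 0.61), a 71.7-fold rise (limma, adjusted p = 2.14e-06). Birc3 stood at 4.07, 6.98 and 7.20 log2 CPM (lowest, median, highest) after TNFa and at 2.68, 2.76, 2.52, 2.68 and 2.76 in the same PBS libraries. Here too the lowest value was WT TNFa 4, still above every PBS library, and the log2 fold change was 3.85 (SE 0.42; limma, adjusted p = 5.10e-06), a 14.4-fold rise. Its neighbour Birc2 stood at 4.07, 6.69 and 7.05 log2 CPM after TNFa, against 3.49, 2.90, 2.94, 3.24 and 3.08 in PBS libraries (log2 fold change 3.17, SE 0.38; limma, adjusted p = 1.39e-05).

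Traf1 was the member with the fewest reads. It stood at -1.28, 1.26 and 1.54 log2 CPM after TNFa (15 to 134 reads per library), against -2.22, -3.22, -3.65, -2.96 and -1.44 in PBS libraries 1, 3, 4, 5 and 6 (3 to 15 reads). The groups did not overlap, the log2 fold change was 3.56 (SE 0.49; limma, adjusted p = 4.77e-05), and with a pseudocount of 1 CPM it was 1.35, as the PBS levels are so low. Traf3 averaged 3.99 ± 0.42 log2 CPM after TNFa and 2.97 ± 0.31 in PBS livers (SD, n = 6 and 5), a log2 fold change of 1.02 (limma, adjusted p = 0.00382). Traf2, which carries the cIAPs to the receptor, averaged 3.34 ± 0.49 and 2.35 ± 0.21 log2 CPM in the same groups (log2 fold change 0.99, adjusted p = 0.0056 in limma). Its TNFa and PBS groups overlapped, through WT TNFa 4 at 2.40. Cflar, the inhibitor of caspase-8, changed least of those called, with 6.16 ± 0.20 log2 CPM after TNFa and 5.64 ± 0.19 in PBS livers (log2 fold change 0.52, adjusted p = 0.00728 in limma).

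The receptors and RIPK1 were not called. Tnfrsf1a averaged 6.35 ± 0.20 log2 CPM after TNFa and 5.97 ± 0.24 in PBS livers (log2 fold change 0.38, adjusted p = 0.2 in limma). Tnfrsf1b averaged 5.12 ± 0.36 and 5.03 ± 0.91, with one PBS library, WT PBS 3, at 6.62 and the other 4 at 4.39 to 4.94. Ripk1 averaged 4.53 ± 0.23 and 4.24 ± 0.22 (adjusted p = 0.33 in limma). Ripk1 overlaps the gene Serpinb6a on the other strand, which reached 6.52 log2 CPM, and since the labels do not say whether counting used strand, reads of the 2 genes may not be told apart. Across the 10 members, 6 had TNFa and PBS groups that did not overlap, all higher, against 3.94% of all genes tested in that direction and 1.31% in the other. Without WT TNFa 4 the same count of 7 members was called and the fold changes were larger, with 6.75 for Ripk2, 4.34 for Birc3, 3.62 for Birc2 and 3.98 for Traf1 on the log2 scale. With WT PBS 2 put back, 4 members were called (Ripk2, Birc3, Birc2 and Cflar), where 2.18% of all genes tested were higher and 1.88% lower. In that fit Traf1 (adjusted p = 0.363 in limma), Traf2 (0.226) and Traf3 (0.531) were not called.

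Other genes of the pathway were read from 6 lists of 61 genes chosen with earlier results of these data known. Of the 55 that were tested, 23 rose and 0 fell after TNFa, against the 7.63% and 4.05% of all genes tested given above. Among the ligands and their shedding factors 4 of 6 rose, led by Tnf itself, at 1.39 ± 1.41 log2 CPM after TNFa and -3.91 ± 1.83 in PBS livers, and by Ltb (lymphotoxin beta; log2 fold change 3.11) and Rhbdf2, which guides the TNF-shedding protease ADAM17 (2.94). Other receptors of the family rose in 4 of 8 cases, with Cd40 at a log2 fold change of 5.05 and Tnfrsf10b, the mouse TRAIL receptor, at 3.28. In complex I 7 of 14 rose, the greatest being the ubiquitin-editing inhibitor Tnfaip3 (A20), at 7.32 ± 1.46 log2 CPM after TNFa and 1.46 ± 0.56 in PBS livers, and its partner Tnip1 (log2 fold change 3.12). Of the kinases 5 of 13 rose, including Map3k14, which encodes NIK, at 2.65. Of the 10 death complex genes only Bid, a BH3 protein cleaved by caspase-8, was called (log2 fold change 1.09), and of the 4 RIPK2 pathway genes tested Slc15a3 and Nod1 rose. With WT PBS 2 put back, 7 of 56 were called, all higher, where 2.18% of all genes tested were higher. Of the genes named above, Tnf, Ltb, Tnfrsf10b, Map3k14, Slc15a3 and Nod1 were not among them. Summed neutrophil markers ran from 10.1 to 111 CPM after TNFa and from 3.37 to 23.9 CPM in PBS livers, with 4 of 6 tested markers called higher, and 3 of 11 macrophage markers were called higher; their part in the changes above was not tested.

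**Figure D2:**
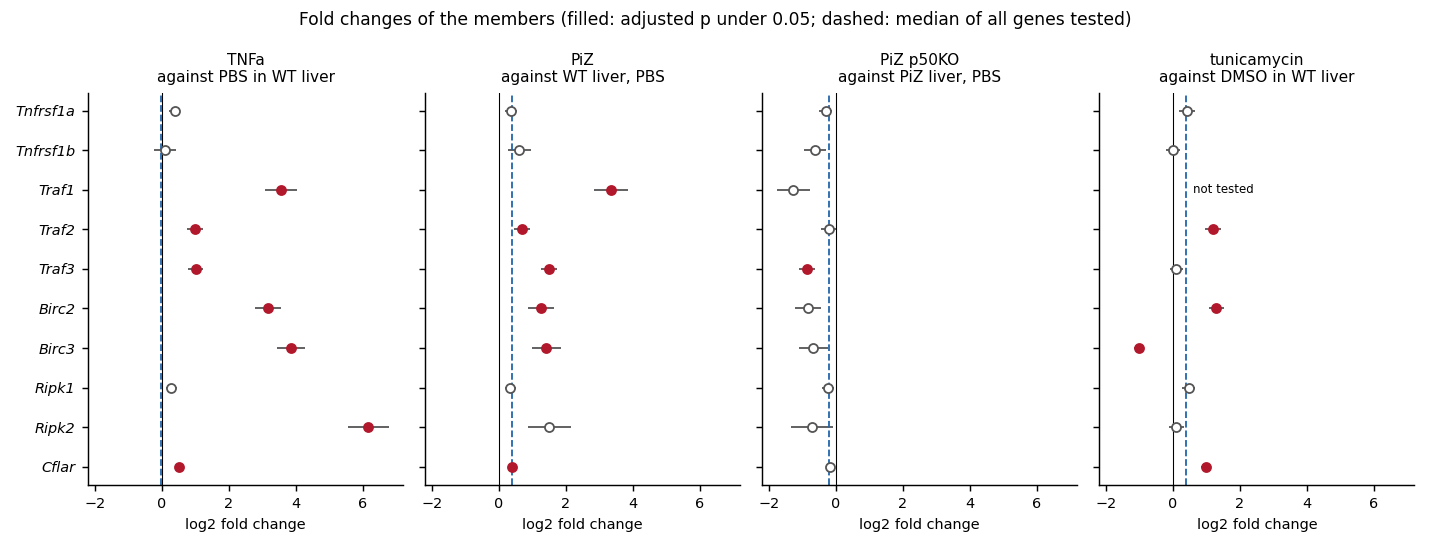
Log2 fold change of each member (x axis, points with SE bars) in 4 comparisons (panels). Filled points have an adjusted p under 0.05 in limma, and the dashed line is the median of all genes tested. Filled are 7 members after TNFa, 6 in PiZ, 1 in PiZ p50KO and 4 after tunicamycin. Of all genes tested, 7.63%, 45.6%, 3.36% and 45.3% were called higher in these comparisons, and 4.05%, 6.19%, 21.6% and 13.5% lower.

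Of the members, only the adaptors Traf1 and Traf3 were called higher in PiZ than in WT livers under each scaling. As deposited, 6 of the 10 members were higher in PiZ and 0 lower, but 45.6% of all genes tested were called higher and 6.19% lower, so that the share of members is near the background. The median change was 0.96 for the members and 0.40 for all genes tested. Where libraries were shifted to the same median, the median of all genes tested moved by -0.49. The calls over all genes then split into 2315 higher (17.4%) and 2990 lower (22.5%), and 2 members, Traf1 and Traf3, were still called higher. The same count of 2 was obtained with quantile normalization (2447 higher, 18.4%, and 2757 lower, 20.8%, over all genes). Under both settings the share of members called higher is near that of all genes tested.

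Traf1 stood at 0.21, 0.93, 0.32, 0.88 and 0.83 log2 CPM in PiZ 1 to 5 (53 to 89 reads), far above the WT PBS values of -3.65 to -1.44 (3 to 15 reads). The groups did not overlap, and the log2 fold change was 3.33 (SE 0.51; limma, adjusted p = 1.89e-05), or 2.85 with libraries at the same median, 2.06 with quantile normalization and 1.13 with a pseudocount of 1 CPM. Traf3 stood at 4.61, 4.89, 4.56, 3.68 and 4.60 log2 CPM in PiZ 1 to 5, against 3.01, 3.26, 2.57, 3.26 and 2.73 in WT PBS 1, 3, 4, 5 and 6. All PiZ values were above all WT values, with PiZ 4 the lowest of its group, and the log2 fold change was 1.499 (SE 0.23; limma, adjusted p = 2.57e-05), or 1.01 with libraries at the same median.

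The ligases and RIPK2 were uneven among the PiZ livers. Birc3 stood at 5.34, 4.16, 3.55, 3.66 and 3.78 log2 CPM in PiZ 1 to 5, against 2.52 to 2.76 in WT PBS livers, a log2 fold change of 1.42 (SE 0.43; limma, adjusted p = 0.00984). Birc2 stood at 5.32, 4.49, 4.17, 3.81 and 4.11 in PiZ 1 to 5 and at 2.90 to 3.49 in WT PBS livers, a log2 fold change of 1.25 (SE 0.40; limma, adjusted p = 0.0119). In both genes PiZ 1 was the highest and no PiZ library fell within the WT range. With libraries at the same median neither was called (adjusted p = 0.094 for Birc3 and 0.128 for Birc2 in limma). Ripk2 stood at 5.16, 4.05, 3.40, 2.20 and 2.87 log2 CPM in PiZ 1 to 5 and at 1.79 to 2.35 in WT PBS livers. PiZ 4 lay within the WT range, and Ripk2 was not called (log2 fold change 1.502, SE 0.64; limma, adjusted p = 0.0546). It was called when PiZ 4 was left out (1.84, adjusted p = 0.0235 in limma) and, with all libraries of both groups, in a fit of the 2 groups alone (adjusted p = 0.0112). The main fit shares its spread over all 4 groups. The SD of Ripk2 was 1.44 log2 units after TNFa, 1.19 in PiZ p50KO, 1.13 in PiZ and 0.26 in WT PBS livers.

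In all, 5 members (Traf1, Traf3, Birc2, Birc3 and Cflar) had PiZ groups wholly above the WT groups, where 31.4% of all genes tested lay wholly above and 4.36% wholly below. Traf2 and Cflar were called higher by smaller amounts, and neither was called with libraries at the same median. Traf2 averaged 3.03 ± 0.51 log2 CPM in PiZ and 2.35 ± 0.21 in WT livers (SD, n = 5 each; log2 fold change 0.68, adjusted p = 0.0224 in limma), and the call ended in 4 of the 10 fits that leave out 1 library (without PiZ 1, 2 or 5 or WT PBS 4). Cflar averaged 6.04 ± 0.15 and 5.64 ± 0.19 log2 CPM (log2 fold change 0.40, adjusted p = 0.0138 in limma), at the median of all genes, and its difference was -0.09 with libraries at the same median. Tnfrsf1a averaged 6.33 ± 0.36 in PiZ and 5.97 ± 0.24 in WT livers (adjusted p = 0.106 in limma), and without PiZ 4 it was called (log2 fold change 0.51, adjusted p = 0.0152). For Tnfrsf1b the averages were 5.64 ± 0.40 and 5.03 ± 0.91 (adjusted p = 0.137), and without WT PBS 3 it was called, with a log2 fold change of 1.01 (limma, adjusted p = 0.00294). Ripk1 averaged 4.58 ± 0.23 and 4.24 ± 0.22 (adjusted p = 0.0998 in limma). With WT PBS 2 put back, 2 members were called in PiZ, Birc3 (log2 fold change 1.49) and Cflar (0.43), where 15.1% of all genes tested were higher and 2.22% lower. In that fit Traf1 (adjusted p = 0.355 in limma), Traf3 (0.168), Birc2 (0.209) and Traf2 (0.472) were not called.

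Of the 55 other pathway genes tested, 36 were higher in PiZ and 0 lower, where 45.6% of all genes tested were higher and 6.19% lower; these shares are also the background of the counts by list and of the marker counts that follow. With libraries at the same median 17 were higher and 2 lower, where 17.4% of all genes tested were higher and 22.5% lower. With WT PBS 2 put back 17 of 56 were higher, without Tnfrsf10b, Cd40, Tnf and Ripk3, where 15.1% of all genes tested were higher. Other receptors of the family were higher in 7 of 8 cases, with Tnfrsf10b at 0.63 ± 0.38 log2 CPM in PiZ and -4.19 ± 1.34 in WT livers, Tnfrsf11a (RANK) at a log2 fold change of 3.42 and Cd40 at 3.40. Ligands and shedding factors were higher in 5 of 6 cases, with Tnf at -0.52 ± 0.50 log2 CPM in PiZ and -3.91 ± 1.83 in WT livers; with quantile normalization Tnf was not called. In the death complex 3 of 10 were higher, namely Mlkl, the executioner of necroptosis (log2 fold change 3.48), its activating kinase Ripk3 (1.44, not called with quantile normalization) and Zbp1, a sensor of Z-form nucleic acids (1.44). Complex I was higher in 8 of 14 cases, led by Tnfaip3 (3.29) and Tnip1 (2.69), the kinases in 10 of 13, and the RIPK2 pathway in 3 of 4. Markers of other liver cells moved in the same comparison: 10 of 11 macrophage markers were higher, with summed levels of 614 to 909 CPM in PiZ and 176 to 216 CPM in WT livers, and 7 of 7 stellate cell markers, with 595 to 884 CPM and 135 to 173 CPM. Hepatocyte markers were lower in 5 of 8 cases, with summed levels of 67003 to 96899 CPM in PiZ and 92975 to 118465 CPM in WT livers. Endothelial markers were higher in 6 of 7 cases and cholangiocyte markers in 4 of 5, while 1 of 9 T and NK cell markers and 0 of 4 B cell markers passed the filter and none of these was called in any comparison. No marker was at 0 in a whole group, and the part of these cells in the members' levels was not tested.

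**Figure D3:**
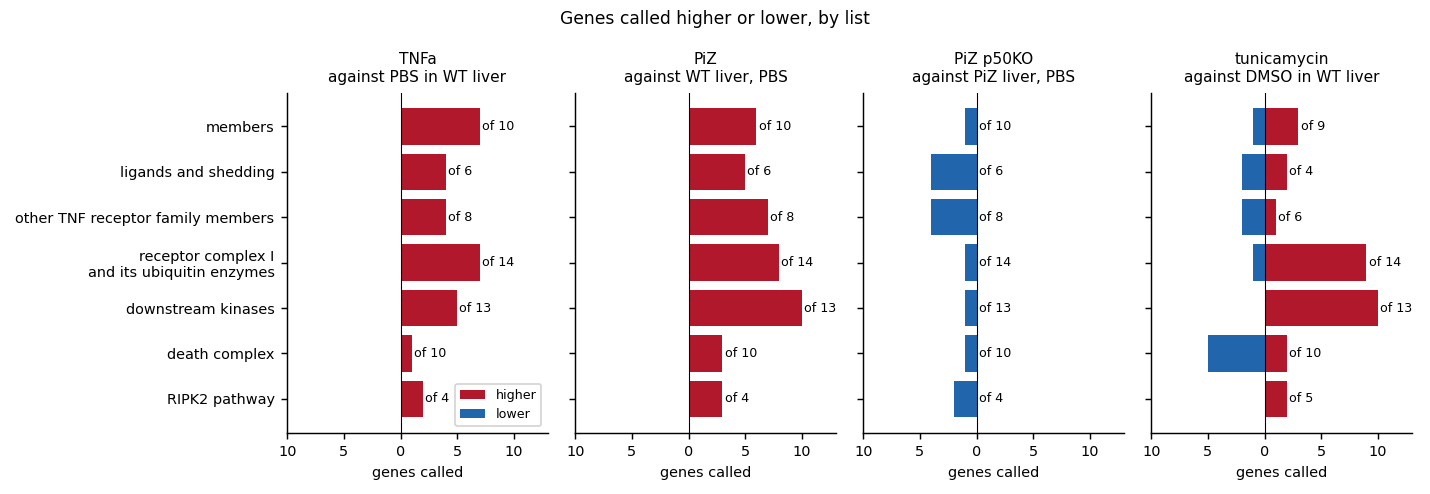
Number of genes called higher (to the right of 0) or lower (to the left) in limma, for the 10 members and 6 lists of other pathway genes (rows) in 4 comparisons (panels), with the number tested beside each bar. In PiZ 7 of 8 other receptors and 10 of 13 kinases are higher, where 45.6% of all genes tested are higher. In PiZ p50KO against PiZ 0 genes of any list are higher, where 3.36% of all genes tested are higher.

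For PiZ p50KO, the targeted gene was examined first. Nfkb1 stood at 4.51, 4.86, 3.31, 3.74 and 3.37 log2 CPM in PiZ p50KO 1 to 5, against 4.62 to 5.58 in PiZ and 3.92 to 4.34 in the 5 WT PBS livers. Libraries labelled PiZ p50KO 1 and 2 thus lay above all of these WT PBS libraries, and 3 to 5 below them; whether the deleted part of the gene contributes to these counts is not stated in the labels. All 5 libraries enter the values below unless a value is said to be without PiZ p50KO 1 and 2.

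Against PiZ livers, 1 of the 10 members, Traf3, was lower in livers labelled PiZ p50KO and 0 were higher, where 21.6% of all genes tested were lower and 3.36% higher. The median change was -0.66 for the members and -0.22 for all genes tested; the members' median was -0.41 without PiZ p50KO 1 and 2 and -0.34 without PiZ 1, with -0.22 for all genes in both. With libraries at the same median, the calls over all genes split into 1307 higher and 1210 lower, and Traf3 was again the 1 member called (log2 fold change -0.61, adjusted p = 0.0256 in limma). Traf3 stood at 3.57, 4.05, 3.05, 3.70 and 3.61 log2 CPM in PiZ p50KO 1 to 5, against 4.61, 4.89, 4.56, 3.68 and 4.60 in PiZ 1 to 5. The groups overlapped through PiZ 4, the log2 fold change was -0.87 (SE 0.23; limma, adjusted p = 0.00993), and it was -1.01 without PiZ p50KO 1 and 2 (adjusted p = 0.0195). With WT PBS 2 in the fit, which is in neither group and left the fold change the same while the shared spread was larger, Traf3 was not called (adjusted p = 0.386 in limma).

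Traf1 stood at -1.75, -1.28, -0.10, -0.05 and 0.00 log2 CPM in PiZ p50KO 1 to 5 (15 to 50 reads), below all 5 PiZ livers (0.21 to 0.93). It did not pass the test (log2 fold change -1.27, SE 0.51; limma, adjusted p = 0.0712). The 2 lowest values were those of PiZ p50KO 1 and 2, the libraries with the higher Nfkb1 levels, and without them the log2 fold change was -0.68 (adjusted p = 0.447). It was the 1 member whose groups did not overlap, against 11.9% of all genes tested in this direction and 1.64% in the other. Birc2 averaged 3.54 ± 0.30 log2 CPM in PiZ p50KO and 4.38 ± 0.58 in PiZ livers, and Birc3 3.41 ± 0.24 and 4.10 ± 0.73 (SD, n = 5 each); neither was called (adjusted p = 0.127 and 0.265 in limma). In a fit of the 2 groups alone Birc2 was lower (log2 fold change -0.84, adjusted p = 0.0464 in limma), as was Traf1 (adjusted p = 0.0453). The main fit also takes in the spread of the TNFa livers, with an SD of 1.11 for Birc2, 1.21 for Birc3 and 1.07 for Traf1. Without PiZ p50KO 1 and 2 the log2 fold changes were -0.71 for Birc2, -0.66 for Birc3 and -0.25 for Ripk2, and none of these was called. Ripk2 stood at 2.12, 2.11, 2.02, 4.80 and 3.05 in PiZ p50KO 1 to 5, with PiZ p50KO 4 well above the other 4, and a log2 fold change of -0.72 (SE 0.64). Differences of the other members lay between -0.63 (Tnfrsf1b) and -0.17 (Cflar) on the log2 scale, with adjusted p of 0.186 to 0.59 in limma, and those of Traf2, Ripk1 and Cflar were above 0 with libraries at the same median. Tnfrsf1a was called without PiZ 4 (log2 fold change -0.46, adjusted p = 0.0453 in limma).

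Against WT PBS livers, Traf1 was the 1 member called in PiZ p50KO livers, higher by 2.06 on the log2 scale (SE 0.51; limma, adjusted p = 0.0151), where 10.5% of all genes were higher and 1.14% lower; with libraries at the same median the split over all genes was 425 and 575. The call ended with a pseudocount of 1 CPM (adjusted p = 0.104), with quantile normalization (0.13), in a fit of the 2 groups alone (0.0691) and with WT PBS 2 (0.95), while without PiZ p50KO 1 and 2 it held, at 2.65 (adjusted p = 0.00195 in limma). Traf3 lay between PiZ and WT, with a log2 fold change of 0.63 against WT (limma, adjusted p = 0.082), and it was called without PiZ p50KO 3 (0.76, adjusted p = 0.0412). Traf2 and Birc3 were above every WT PBS library in all 5 livers (2.54 to 3.16 against 1.98 to 2.51, and 3.19 to 3.81 against 2.52 to 2.76 log2 CPM) and were not called in limma (adjusted p = 0.194 and 0.283), although Birc3 was called in a fit of the 2 groups alone (0.73, adjusted p = 0.0348); 6.08% of all genes tested were without overlap in this direction and 0.557% in the other. Of the 55 other pathway genes 13 were higher than in WT livers and 0 lower (10.5% and 1.14% of all genes tested). Those higher were led by Tnf (log2 fold change 2.79), Cd40 (2.47) and Map3k14 (2.12). With libraries at the same median 4 were higher and 1 lower (3.2% and 4.33% of all genes tested), and Tnf was not called. With WT PBS 2 put back 0 of 56 were called. Macrophage markers were higher than in WT livers in 7 of 11 cases and lower in 1, and stellate cell markers higher in 4 of 7; their part was not tested.

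Of the 55 other pathway genes tested, 13 were lower in PiZ p50KO than in PiZ livers and 0 higher, a share near the 21.6% of all genes tested that were lower. The greatest differences were in Tnfrsf10b, at -2.11 ± 1.36 log2 CPM in PiZ p50KO and 0.63 ± 0.38 in PiZ livers, in Tnfrsf12a, the TWEAK receptor (log2 fold change -2.18), and in Mlkl (-2.04). Ligands were lower in 4 of 6 cases, other receptors in 4 of 8, the RIPK2 pathway in 2 of 4, and complex I, kinases and the death complex in 1 case each. Without PiZ p50KO 1 and 2 the count was 5 of 55, with Mlkl still called and Tnfrsf10b and Tnfrsf12a not, where 9.62% of all genes tested were lower. With libraries at the same median 7 were lower and 1 higher, where 9.11% of all genes tested were lower and 9.84% higher. With WT PBS 2 the count was 3 of 56, where 2.96% of all genes tested were lower, and Tnfrsf10b was not called (adjusted p = 0.396 in limma). Macrophage markers were lower in 11 of 11 cases (282 to 531 CPM summed in PiZ p50KO and 614 to 909 CPM in PiZ livers), and stellate cell markers in 6 of 7 (199 to 373 CPM and 595 to 884 CPM); without PiZ p50KO 1 and 2 these counts were 7 of 11 and 5 of 7. The part of these cells in Traf3 or the other members was not tested.

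A direct comparison of PiZ with TNFa-treated WT livers set the members apart by size. Ripk2, Birc3 and Birc2 were lower in PiZ, by log2 fold changes of -4.66, -2.43 and -1.92 (limma, adjusted p = 3.01e-06, 5.70e-05 and 0.000251). The groups did not overlap for Ripk2 alone, where 4.04% of all genes tested lay wholly lower and 30% wholly higher. In this comparison 0 members were called higher, where 8.11% of all genes tested were lower and 47.7% higher. Traf1 averaged 0.64 ± 0.34 log2 CPM in PiZ and 0.86 ± 1.07 after TNFa (adjusted p = 0.716), and Traf3 4.47 ± 0.46 and 3.99 ± 0.42 (adjusted p = 0.0737 in limma). Traf3 was called higher in PiZ without PiZ 4 (log2 fold change 0.68, adjusted p = 0.00915 in limma) or without WT TNFa 1 (0.59, adjusted p = 0.033). The other 5 members differed by -0.31 to 0.52 and were not called. Under other settings Traf2 was lower without WT TNFa 4 (-0.50, adjusted p = 0.0363 in limma) and with quantile normalization (-0.81), Cflar was lower with quantile normalization (-0.36), and Tnfrsf1b was higher in a fit of the 2 groups alone (0.52, adjusted p = 0.0426). With libraries at the same median, where the split over all genes was 2744 higher and 3035 lower, Tnfrsf1a, Traf2 and Cflar were also lower, which makes 6. Of the 55 other pathway genes tested 21 were higher and 11 lower in PiZ, for instance Tnfaip3 lower (-2.57) and Mlkl higher (2.79). With libraries at the same median the counts were 7 and 19, where 20.7% of all genes tested were higher and 22.8% lower. Markers higher in PiZ than in TNFa livers were 10 of 11 for macrophages and 7 of 7 for stellate cells, and 5 of 8 hepatocyte markers were lower; their part was not tested.

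**Figure D4:**
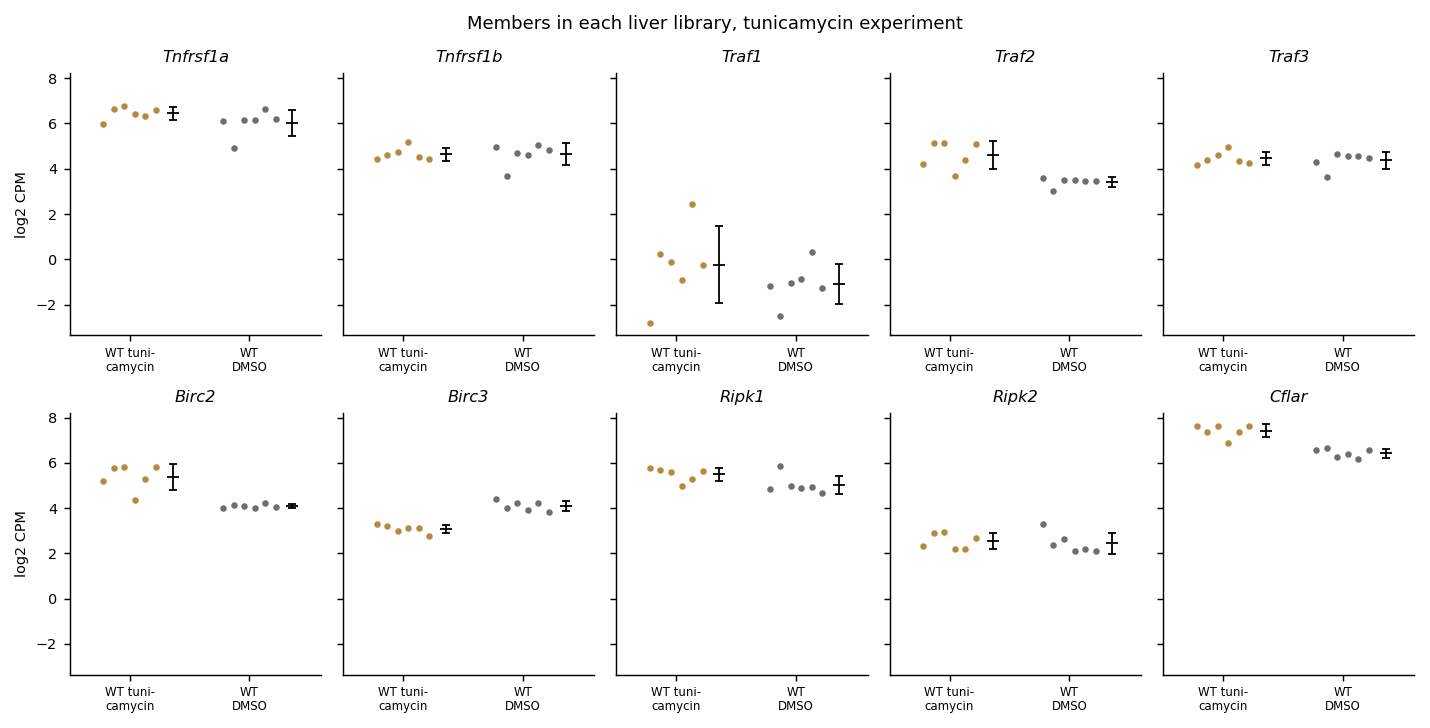
Level of each member in log2 CPM (y axis) in every library of the tunicamycin experiment, by group (x axis: WT tunicamycin, WT DMSO). Points are libraries and bars the mean ± SD (n = 6 each); Traf2, Birc2 and Cflar are higher and Birc3 lower after tunicamycin, each without overlap.

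Tunicamycin split the pair of ligases. Birc2 rose and Birc3 fell, Traf2 and Cflar rose, and Ripk2, the gene with the greatest rise after TNFa, was not called. In counts, 3 of the 9 members tested rose and 1 fell, where 45.3% of all genes tested were higher and 13.5% lower, and the same 3 and 1 were obtained with libraries at the same median (3233 higher and 3913 lower over all genes). The median change was 0.42 for the members and 0.38 for all genes; without WT DMSO 2 it was 0.20 and 0.33, and with libraries at the same median -0.03 and -0.07. Of the 9 members tested, 3 had tunicamycin groups wholly above and 1 wholly below the DMSO groups, where 28.5% of all genes tested lay wholly above and 4.76% wholly below; the higher share is near the background.

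Birc2 stood at 4.34, 5.54 and 5.82 log2 CPM (lowest, median and highest of 6 tunicamycin libraries), against 4.01, 4.07 and 4.23 in 6 DMSO libraries. The DMSO livers lay close together, all below the lowest tunicamycin liver, and the log2 fold change was 1.28 (SE 0.22; limma, adjusted p = 0.000325). Birc3 stood at 2.78, 3.10 and 3.31 after tunicamycin and at 3.82, 4.12 and 4.40 in DMSO livers, a log2 fold change of -1.02 (SE 0.14; limma, adjusted p = 7.03e-05). Traf2 stood at 3.69, 4.73 and 5.16 log2 CPM after tunicamycin and at 3.01, 3.48 and 3.57 in DMSO livers, and rose 2.29-fold (log2 fold change 1.19, SE 0.24; limma, adjusted p = 0.00107). Cflar stood at 6.88, 7.49 and 7.63 after tunicamycin and at 6.16, 6.46 and 6.66 in DMSO livers, and rose 1.97-fold (log2 fold change 0.98, SE 0.15; limma, adjusted p = 0.00015). With libraries at the same median the log2 fold changes were 0.83 for Birc2, -1.47 for Birc3, 0.74 for Traf2 and 0.53 for Cflar.

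Traf1 was below the filter in this table; it stood at -2.83, -0.17 and 2.44 log2 CPM (lowest, median, highest) after tunicamycin, 5 to 230 reads, and at -2.48, -1.13 and 0.32 in DMSO livers. Ripk1 averaged 5.49 ± 0.29 and 5.02 ± 0.41 log2 CPM (log2 fold change 0.47, adjusted p = 0.0554 in limma), and without WT DMSO 2, which was at 5.84 when the other 5 were at 4.67 to 4.96, it was called (0.63, adjusted p = 0.00182), as it was without the tunicamycin library called a (0.57, adjusted p = 0.0208). Tnfrsf1a averaged 6.45 ± 0.29 after tunicamycin and 6.03 ± 0.58 in DMSO livers (adjusted p = 0.145 in limma). Tnfrsf1b, Traf3 and Ripk2 differed by 0.00, 0.09 and 0.09 on the log2 scale (adjusted p = 0.992, 0.698 and 0.741), and all 3 differences were below 0 with libraries at the same median.

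Because the neighbours Birc2 and Birc3 went in opposite directions, the difference Birc2 minus Birc3 was taken within each library; this value was chosen after the levels were seen. It does not depend on scaling between libraries, and its size in 1 group is no comparison of the genes' transcript amounts, since the genes differ in length. It averaged 2.29 ± 0.66 log2 units after tunicamycin (1.23 to 3.04) and -0.01 ± 0.22 in DMSO livers (-0.39 to 0.24), a shift of 2.30. This is a description with no test, since the opposite moves without overlap already fix that these differences do not overlap. The other 5 comparisons were tested, with p adjusted over them. They share groups, and the adjustment does not cover that this difference was chosen after the levels were seen. After TNFa it averaged -0.23 ± 0.14, against 0.45 ± 0.25 in the 5 WT PBS livers, a shift of -0.68 in which the groups did not overlap (exact two-sided permutation test, p = 0.00433, the smallest possible here; adjusted 0.0216). With WT PBS 2 put back this shift was -1.11. In PiZ livers it averaged 0.28 ± 0.24, a shift of -0.17 against WT PBS (exact permutation test, p = 0.333), and in PiZ p50KO livers 0.13 ± 0.16, a shift of -0.15 against PiZ (exact permutation test, p = 0.302) and of -0.32 against WT PBS (exact permutation test, p = 0.0556, adjusted 0.0926). Without PiZ p50KO 1 and 2 the last 2 shifts were -0.05 and -0.22. PiZ and TNFa livers differed by 0.52 (exact permutation test, p = 0.00866, adjusted 0.0216).

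**Figure D5:**
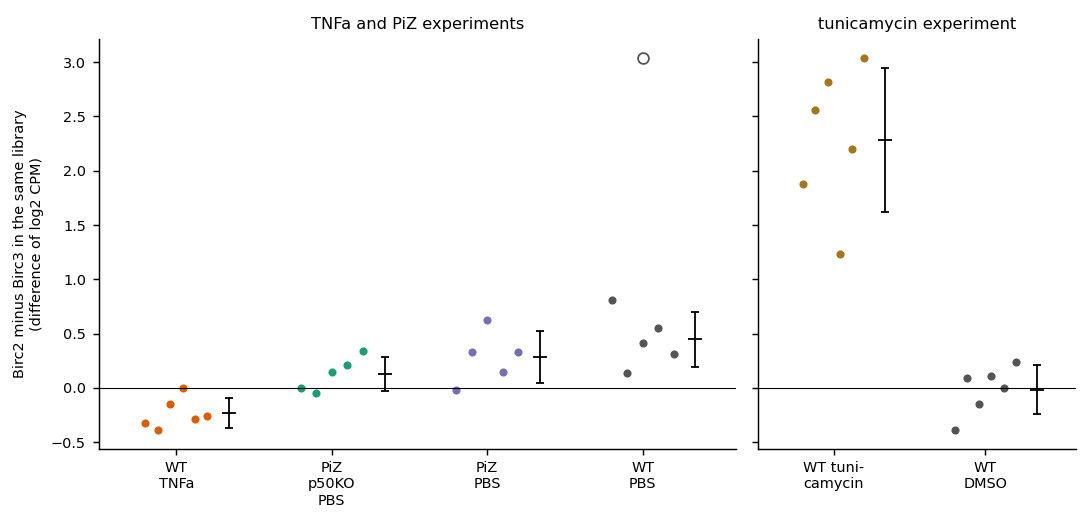
Birc2 minus Birc3 within each library, as a difference of log2 CPM (y axis), by group (x axis; left panel WT TNFa, PiZ p50KO PBS, PiZ PBS and WT PBS, right panel WT tunicamycin and WT DMSO). Points are libraries, the open circle is WT PBS 2, and bars are the mean ± SD without it; the 6 tunicamycin livers lie between 1.23 and 3.04, above all 6 DMSO livers.

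Among the other pathway genes, 26 of the 52 tested rose after tunicamycin and 10 fell, shares near the 45.3% and 13.5% of all genes tested. With libraries at the same median 7 rose and 16 fell, where 24.1% of all genes tested were higher and 29.2% lower. Tnfrsf12a moved most, at 6.07 ± 1.39 log2 CPM after tunicamycin and 1.83 ± 1.02 in DMSO livers (log2 fold change 4.24). In the death complex 5 of 10 fell, including Zbp1 (-2.30), and 2 rose. Ligands Tnfsf12 (-1.61) and Tnfsf10 (-1.42) fell, while 10 of 13 kinases rose, for instance Ikbkg, the regulatory subunit of the IKK complex (1.11). In complex I 9 of 14 rose and Traf5 fell (-1.34); the deubiquitinase Cyld rose by 0.97. Hepatocyte markers summed to 28688 to 76101 CPM after tunicamycin and 93741 to 119302 CPM in DMSO livers, with 4 of 8 called lower and 1 higher, and 5 of 11 macrophage markers were lower; their part in the changes was not tested.

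Per kilobase of exon, the same members held the first and the last place in every group except WT TNFa, where the first place differed. Tnfrsf1a had the highest mean level per kilobase in PiZ p50KO, PiZ, WT PBS, tunicamycin and DMSO livers (4.64, 4.95, 4.59, 5.08 and 4.65 log2 CPM per kilobase) and Traf1 the lowest (-3.78, -2.51, -5.84, -3.37 and -4.23). After TNFa Ripk2 came first, at 6.71 ± 1.44, then Tnfrsf1a at 4.97 ± 0.20, Birc3 at 4.21 ± 1.21 and Birc2 at 4.10 ± 1.11. From Tnfrsf1a to Birc2, neighbours in this order differed by less than the larger of their SDs. In WT PBS livers Ripk2 came in place 6, at 0.54 ± 0.26, within the larger SD of Birc3 (0.36 ± 0.10). In tunicamycin livers Birc2 came in place 3, at 3.18 ± 0.57, and Birc3 in place 9, at 0.76 ± 0.19, while in DMSO livers they held places 5 and 6 (1.89 ± 0.08 and 1.78 ± 0.22) and did not differ beyond their spread.

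Genes with the most similar pattern over the 21 libraries of the first table were found for the 6 members called in at least 2 of the TNFa, PiZ and PiZ p50KO comparisons, by the root mean square difference of log2 values after centring each gene on its WT PBS mean. The nearest to Birc2 was Ackr1 (0.31), followed by Steap4 (0.35) and Pde4b (0.40). Birc3 was nearest to Hmox1 (0.40), Nfkbie (0.41) and Irf1 (0.47). Members were left out of this search. Traf1 was nearest to Serpina3g (0.75), Tnip1 and Sema4d (0.76 each). Traf3 was nearest to Prkcd (0.28), Traf2 to Pak4 (0.15) and Cflar to Atxn3 (0.17). These values must be read against the members' own deviation from the WT mean, of 2.80 for Traf1, 2.30 for Birc3, 1.91 for Birc2, 1.02 for Traf3, 0.76 for Traf2 and 0.40 for Cflar.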

How the data were processed

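Polyadenylated RNA of 34 mouse livers was sequenced. The authors deposited log2 CPM values per gene, which per the labels and the submitters' processing notes come from bcl2fastq, DRAGEN, STAR, Subread featureCounts and edgeR on GRCm38; whether counting used strand is not given in the sources used here. In the values checked (up to 50 reads), 100% came out as whole reads within 0.1 read, which gives the depth of each library; such counts limit the precision of low genes such as Traf1. Of 55774 rows per table, 287 repeats were identical and counted once. Replicates are the labelled samples; 3 tunicamycin columns name only their group and are called a, b and c.

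Genes above 1 CPM in at least 5 (first table) or 6 libraries (second) were tested with limma 3.58.1 in R 4.3.3 (lmFit, eBayes with trend, two-sided, Benjamini-Hochberg adjustment over all genes tested); the first table was fitted as 4 groups of 21 libraries. The procedure was checked on simulated data with independent noise of equal spread in all groups. That check does not cover shifts of many genes in 1 direction or outlying libraries. Fold changes are on the deposited log2 scale, which understates changes of low genes. Alternatives were a pseudocount of 1 CPM, no filter, a filter at 4 CPM, libraries shifted to 1 median, quantile normalization, a replicate block, 2 groups alone, WT PBS 2 included, PiZ p50KO 1 and 2 left out, and each library left out. Birc2 minus Birc3 was tested by exact permutation, except after tunicamycin. Members and gene lists (61 pathway genes; markers of hepatocytes, macrophages, neutrophils, T and NK cells, B cells, endothelial cells, stellate cells and cholangiocytes) were chosen with earlier results of these data known. Pathway genes were named from the 3 with the largest change among those called in each list and comparison. Some of these are not reported here. Gene positions are from GENCODE M21 (GRCm38), promoters from RefSeq.

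Same-numbered samples were not taken as pairs, since in no comparison did every such pair correlate at over 0.1, and the fit has no replicate block. This rule cannot show that pairing is absent, and the correlations and the counts with a block are given below.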

Additional observations from a re-analysis of the deposited data

Results flagged for a closer look

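Values were checked in 70 sets, each a member in 1 group, with WT PBS taken both with and without WT PBS 2. Members share libraries, so the sets are not independent, and the chance rate of Dixon's criterion (about 1 set in 20) is no measure for their number. By this criterion, 23 sets held a library far from the rest of its group. Of these, 6 were WT PBS 2, with Tnfrsf1a at 4.61, Traf1 at 6.45, Traf2 at 4.06, Traf3 at 6.25, Birc2 at 5.30 and Ripk2 at 3.36 log2 CPM, the first below and the others above the other WT PBS libraries. In 5 cases it was WT TNFa 4, the lowest of its group, with Traf1 at -1.28, Traf2 at 2.40, Birc2 at 4.07, Birc3 at 4.07 and Ripk2 at 5.27 log2 CPM.

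WT DMSO 2 was the lowest of its group for Tnfrsf1a (4.92), Tnfrsf1b (3.70), Traf2 (3.01) and Traf3 (3.63) and the highest for Ripk1 (5.84). PiZ 4 was the lowest of its group for Traf2 (2.14) and Traf3 (3.68), and PiZ p50KO 3 for Tnfrsf1a (5.33). WT PBS 3 was the highest for Tnfrsf1b (6.62), both with and without WT PBS 2 in the group, and WT PBS 4 the lowest for Traf2 (1.98) once WT PBS 2 was set aside. After tunicamycin, Cflar was lowest in the library called a (6.88).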

How the results depend on the processing

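Over alternatives that leave out no single replicate, 437 member fold changes kept direction and call, 19 lost the call, 12 gained it and 31 changed sign; with 1 library left out the numbers were 593, 4, 10 and 21. The cause of these changes was not tested. With WT PBS 2, the genes called numbered 547 (TNFa), 2336 (PiZ), 468 (PiZ p50KO against PiZ), 12 (PiZ p50KO against WT) and 3406 (PiZ against TNFa), and the members called 4, 2, 0 and 0 in the first 4 of these. For PiZ p50KO against PiZ, 2201 genes were called with 2 groups alone, 1479 without PiZ p50KO 1 and 2, and 2197 to 3770 with 1 library left out. For PiZ p50KO against WT, the count was 819 with no filter, 1000 at the same median, 595 with quantile normalization, 795 with the replicate block, 321 with 2 groups alone, 2427 without PiZ p50KO 1 and 2, and 703 to 2113 with 1 library left out. The members called numbered 2 and 2 in PiZ at the same median and with quantile normalization, all higher, where 17.4% and 18.4% of all genes tested were higher. In PiZ against TNFa they numbered 6 and 5, all lower, where 22.8% and 21.3% of all genes tested were lower. For PiZ p50KO against PiZ they numbered 2 with a pseudocount of 1 CPM (Traf1 added), 3 with 2 groups alone (Traf1 and Birc2 added), and 1 to 2 with 1 library left out. For PiZ p50KO against WT they numbered 0 with that pseudocount, with a filter at 4 CPM and with quantile normalization, and 1 to 2 with 1 library left out. With 1 library left out, the members called numbered 7 in each TNFa fit, 5 to 8 in PiZ, 3 to 4 in PiZ against TNFa and 4 to 5 after tunicamycin.

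At the same median, signs changed in PiZ for Tnfrsf1a (-0.13), Ripk1 (-0.15; quantile -0.0626) and Cflar (-0.0872), in PiZ p50KO against PiZ for Traf2 (0.0622; quantile 0.12), Ripk1 (0.0179) and Cflar (0.0869; quantile 0.0044), and in PiZ against TNFa for Ripk1 (-0.37; quantile -0.25). In PiZ p50KO against WT they changed for Tnfrsf1a (-0.18; quantile -0.0918; replicate block -0.0012; without PiZ p50KO 1 and 2 -0.0935), Ripk1 (-0.13; quantile -0.10; with WT PBS 2 -0.0292), Cflar (-0.000301) and, elsewhere, Tnfrsf1b (0.0793 with WT PBS 2; 0.26 without PiZ p50KO 1 and 2). After tunicamycin they changed for Tnfrsf1a (-0.0272; quantile -0.0132), Tnfrsf1b (-0.45; quantile -0.48, called; replicate block -0.35), Traf3 (-0.36; quantile -0.38; block -0.0594) and Ripk2 (-0.36; quantile -0.25).

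With 1 library left out, Tnfrsf1b ranged over -0.0679 to 0.49 (TNFa), -0.18 to 0.38 (PiZ p50KO against WT) and -0.19 to 0.0818 (tunicamycin), Tnfrsf1a over -0.0482 to 0.22 (PiZ p50KO against WT) and -0.10 to 0.13 (PiZ against TNFa), Ripk1 over -0.0265 to 0.19 and -0.0352 to 0.14 in the same 2, and Traf3 over -0.0577 to 0.15 (tunicamycin). Birc2 minus Birc3 (all its alternatives chosen after seeing the data) shifted by -0.75 in PiZ p50KO against WT with WT PBS 2 (adjusted exact permutation p = 0.0505) and by -0.39 to -0.23 with 1 library left out; the tunicamycin shift was 2.15 to 2.51 and the TNFa shift -0.76 to -0.59. In no comparison were the correlations of all same-numbered pairs over 0.1 (they ran from -0.18 to 0.06 for TNFa, -0.18 to 0.56 for PiZ, -0.23 to 0.13 and -0.23 to 0.11 for PiZ p50KO against PiZ and WT, -0.05 to 0.36 with 3 of 5 over 0.1 for PiZ against TNFa, and -0.08 to 0.13 for 3 tunicamycin pairs), and with the replicate block 1323 (TNFa), 6191 (PiZ), 2947 (PiZ p50KO against PiZ), 6956 (PiZ against TNFa) and 6520 (tunicamycin) genes and 7, 6, 1, 3 and 5 members were called, Ripk1 being added after tunicamycin. The tunicamycin fit with the block held only samples 1, 5 and 6 of each group, so its values cannot be read as the effect of the block alone. WT DMSO 2 was among the libraries left out, and Ripk1 was also called in the fit without that library alone. Depth limits Traf1, with 3 to 15 reads in WT PBS livers.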

Other observations

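In 3 of the 34 libraries the recovered reads of Birc2 and Birc3 were equal, with 516 reads each in PiZ p50KO 1 and 821 each in WT DMSO 5, the other being WT TNFa 4. WT TNFa 4 also had the lowest level of both genes among the TNFa livers. Ripk2 was uneven within both PiZ genotypes: PiZ p50KO 4 stood at 4.80 log2 CPM, when the other 4 PiZ p50KO livers were at 2.02 to 3.05, and PiZ 1 stood at 5.16 while PiZ 4 was at 2.20.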
